A study of Mus musculus with 6 samples.

Results

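Transcripts of 10 genes that the tumor suppressor p53 is known to activate were followed in cardiac fibroblasts from infarcted hearts. The genes are *Mdm2*, *Ccng1*, *Zmat3*, *Plk2*, *Bbc3*, *Phlda3*, *Eda2r*, *Trp53inp1*, *Sesn1* and *Gdf15*. They were chosen by name, and all 10 were found among the 34745 genes of the deposited table. The libraries labelled KO (KO libraries, n = 3) came from mice in which CRISPR/Cas9 had removed the stretch of *Kdm5b* that encodes the JmjC domain and had shifted the reading frame, a deletion made to remove the histone H3K4 demethylase KDM5B. Those labelled WT (WT libraries, n = 3) came from littermates without that deletion. Both groups were male mice of 8 to 10 weeks whose left anterior descending coronary artery had been ligated, and fibroblasts were taken from the left ventricle 7 days after this myocardial infarction (MI). Whether each library came from a single mouse is not stated, so p-values measure the spread between these libraries.

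p53 is a transcription factor that is held at a low level in unstressed cells, mainly because the ubiquitin ligase Mdm2 marks it for degradation. DNA damage and other stress free p53 from Mdm2, and p53 then activates genes that stop the cell cycle, start apoptosis, adjust metabolism and, through *Mdm2* itself, end its own response. Many of these genes also respond to other signals, so their transcripts are not a reading of p53 activity alone.

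The libraries held 12025403 to 15329427 counts on genes. *Kdm5b*, read first as a check of the labels, had 98.1, 107 and 105 CPM (counts scaled to a common library size by TMM) in KO libraries and 108, 129 and 123 in WT libraries (log2 fold change -0.22, adjusted p = 0.0574 from edgeR). This difference missed the threshold, passed it with upper quartile scaling (adjusted p = 0.0324) and without WT replicate 1 (0.0188), and was 0.18 with marker scaling (adjusted p = 0.108), so the check of the labels is weak. The KO level was 0.861 of the WT level, and counts over the whole gene do not separate the deleted stretch from the rest, so groups are named by their labels. All 10 fibroblast markers were detected, with a summed level of 26566 to 30976 CPM in KO libraries and 37163 to 39601 in WT libraries, and with TMM scaling all 10 fell. All 10 endothelial markers rose, from a summed 278 to 287 CPM to 1501 to 2167 CPM. All 20 mitotic genes were higher, 19 of them with an adjusted p under 0.05 (edgeR). Their sum went from 704 to 712 CPM to 1264 to 1422 CPM. Macrophage markers summed to 1232 to 1265 CPM against 1521 to 1629, with 6 of 10 lower at that threshold and *Cd68* higher (log2 fold change 1.38). Cardiomyocyte markers summed to 775 to 865 CPM against 1075 to 1107. The lymphocyte markers *Cd3e*, *Cd3d*, *Nkg7* and *Cd8a* had no count in any library. The part of these shifts in the values below was not tested, and in bulk RNA fewer cells of a type and less RNA per cell cannot be told apart.

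The p53 target genes did not move as a block. Of the 10, *Mdm2* and *Plk2* were higher in KO libraries, *Ccng1* and *Gdf15* were lower, and 6 did not pass the threshold (adjusted p under 0.05 over all genes, edgeR's quasi-likelihood test), whereas scaling on marker genes, described below, gave 6 higher (*Mdm2*, *Plk2*, *Zmat3*, *Phlda3*, *Eda2r* and *Trp53inp1*) and 0 lower. The count of 4 fell to 2 without KO replicate 3, WT replicate 2 or WT replicate 3, and to 3 without WT replicate 1, and no member was called higher without WT replicate 2. The share called, 40%, stands beside 30.2% of all 14084 genes tested, of which 17.7% were called higher and 12.5% lower. Every change was small. The members lay between -0.34 and 0.26 on the log2 scale, their median being -0.05, against a median of -0.02 over all genes tested, and the median size without sign was 0.15 against 0.22. No member reached a 2-fold change. In 6 members the 3 libraries of each label did not overlap, which also held for 47.0% of all genes tested.

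Per transcript length the members covered a wide range, given here as the deposited FPKM (fragments per kilobase of transcript and per mapped library size). *Plk2* was highest, at a mean of 175 FPKM over the 6 libraries, followed by *Ccng1* at 105 and *Phlda3* at 62.0. *Mdm2* (17.8 FPKM), *Trp53inp1* (15.6) and *Eda2r* (13.3) formed the middle. *Gdf15* (8.60), *Bbc3* (7.57), *Zmat3* (6.20) and *Sesn1* (3.22) were the lowest. Of the neighbours in this order, *Mdm2* and *Trp53inp1* overlapped over all 6 libraries, and so did *Gdf15* and *Bbc3*, while every other pair of neighbours was separate. *Mdm2* and *Trp53inp1* overlapped within WT libraries and not within KO libraries, and the reverse held for *Gdf15* and *Bbc3*.

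**Figure D1:**
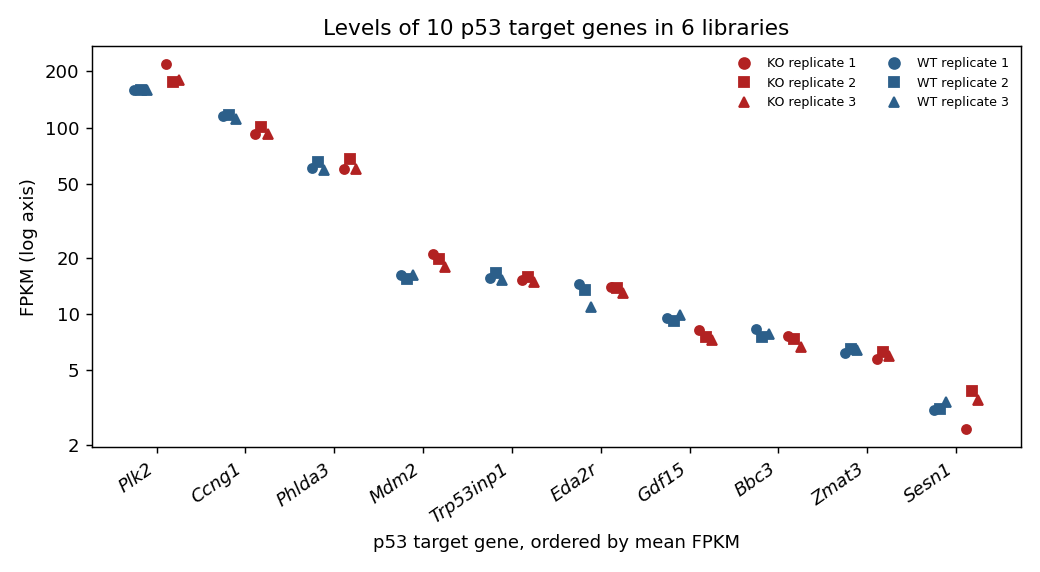
FPKM (log axis) of the 10 p53 target genes in each library, ordered by their mean, with WT libraries in blue, KO libraries in red and a marker shape for each replicate number. The levels span 2.42 to 219 FPKM, and the span between the genes is far wider than the difference between the labels within any of them.

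*Mdm2* (ENSMUSG00000020184, chromosome 10 from 117688888 to 117710758, minus strand, mm10) encodes the ligase that degrades p53 and is itself activated by p53. It had 203, 192 and 174 CPM in KO libraries and 160, 154 and 160 CPM in WT libraries. Every KO library was above every WT library. The log2 fold change was 0.26 (SE 0.06, adjusted p = 0.0155 from edgeR), or 19.9% more, from 158 ± 3.65 CPM (SD, n = 3) to 190 ± 14.8 CPM. By exact permutation (two-sided) p was 0.1, which is as low as 3 against 3 can go. Without WT replicate 2 the log2 fold change was 0.24 and the adjusted p 0.0597.

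*Trp53*, the gene of p53 itself (chromosome 11 from 69580359 to 69591873), moved the other way. It had 206, 182 and 175 CPM in KO libraries and 244, 217 and 232 CPM in WT libraries, again without overlap. The log2 fold change was -0.30 (SE 0.07, adjusted p = 0.015 from edgeR) but 0.10 with marker scaling, and leaving out KO replicate 3 or WT replicate 1 ended the call (adjusted p = 0.0618 and 0.053). *Mdm4*, which encodes a relative of Mdm2 that blocks the activity of p53, had 112, 109 and 107 CPM against 99.2, 103 and 117, and these values overlapped (log2 fold change 0.04, 95% interval -0.12 to 0.20, adjusted p = 0.694 from edgeR).

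*Ccng1* (ENSMUSG00000020326, chromosome 11 from 40748552 to 40755311, minus strand) encodes cyclin G1, which brings protein phosphatase 2A to Mdm2. It had 392, 432 and 394 CPM in KO libraries and 503, 511 and 484 CPM in WT libraries. The lowest WT library was above the highest KO library. The log2 fold change was -0.30 (SE 0.05, adjusted p = 0.00325 from edgeR), or 18.7% less by a fall from 500 ± 14.0 CPM (SD, n = 3) to 406 ± 22.2 CPM. The fall was past the threshold in all 6 fits that left out a library, with log2 fold changes from -0.34 to -0.27, but with marker scaling the log2 fold change was 0.10 and not past the threshold (adjusted p = 0.143).

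*Mdm2* and *Ccng1* are both textbook targets of p53 and went in opposite directions here with TMM scaling (both were above 0 with marker scaling), so the 250 bases before their start sites are shown. The windows come from RefSeq on GRCm38.p6, and 8 of the 10 members matched an entry (all but *Zmat3* and *Trp53inp1*), with 12 windows in all. Each window runs from 250 bases before to 50 bases after a start site, and the whole of it was searched for the p53 response element, a pair of 10-base half-sites, each the p53 half-site consensus with its core CNNG, with 0 to 13 bases between them. The half-site consensus is its own reverse complement, so a single pass reads both strands, and a response element contains its half-sites. Capitals mark the best response element with at most 3 mismatches or, where there is none, a half-site without mismatch.
*Ccng1* (chr11:40755287-40755536, minus strand): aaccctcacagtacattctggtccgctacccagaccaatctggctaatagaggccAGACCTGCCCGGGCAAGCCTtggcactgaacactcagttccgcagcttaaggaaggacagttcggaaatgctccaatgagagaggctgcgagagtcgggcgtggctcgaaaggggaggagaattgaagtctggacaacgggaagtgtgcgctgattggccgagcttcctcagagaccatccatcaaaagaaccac
*Mdm2* (chr10:117710759-117711008, minus strand): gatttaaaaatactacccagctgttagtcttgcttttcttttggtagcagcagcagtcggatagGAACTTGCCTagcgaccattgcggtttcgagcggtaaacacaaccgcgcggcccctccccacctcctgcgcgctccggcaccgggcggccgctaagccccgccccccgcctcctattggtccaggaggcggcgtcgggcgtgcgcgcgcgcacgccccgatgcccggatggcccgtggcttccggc
In *Ccng1* the element lies 195 to 176 bases before the start site, with 1 mismatch and no spacer. Over all 32851 windows of the table, 0.627% held an element with at most 1 mismatch, and the *Ccng1* window was the only member window that did. In *Mdm2* a single half-site begins 186 bases before the start site. A half-site without mismatch was found in 8.36% of all windows and in 3 of the 12 member windows (*Ccng1*, *Mdm2* and *Sesn1*). The known p53-responsive promoter of *Mdm2* lies in its first intron, outside this window. These are matches of letters and not measured binding sites.

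*Plk2* (ENSMUSG00000021701, chromosome 13 from 110395044 to 110400844, plus strand) encodes polo-like kinase 2, a kinase of the G1 and S phases that serum and other stimuli also induce. It had 603, 490 and 495 CPM in KO libraries and 448, 450 and 448 CPM in WT libraries. All KO libraries were higher, and KO replicate 1 stood above the other two. The means were 529 ± 63.8 CPM (SD, n = 3) and 449 ± 1.10 CPM. The log2 fold change was 0.24 (SE 0.08, adjusted p = 0.0498 from edgeR), at the edge of the threshold. Without KO replicate 1 it was 0.14 (adjusted p = 0.0326). The call was lost without KO replicate 3 (0.29, adjusted p = 0.0507) and without WT replicate 1, 2 or 3 (adjusted p = 0.116, 0.116 and 0.118), and with upper quartile scaling (0.20, adjusted p = 0.0828). Of 13 immediate early genes, which stimuli induce within minutes, KO replicate 1 was the highest KO library for 8 and the lowest for 4. Among them *Jun* had 170 CPM there against 122 and 126 in the other KO libraries, and *Egr1* had 146 against 180 and 163. *Atf3*, a stress-induced repressor outside that list, had 160 CPM against 63.7 and 64.4. In WT libraries *Jun* had 97.1, 98.3 and 101 CPM, *Egr1* 224, 224 and 224, and *Atf3* 16.5, 18.2 and 17.6. Whether the levels of these genes go with that of *Plk2* was not tested.

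*Zmat3* (ENSMUSG00000027663, chromosome 3 from 32334792 to 32366014), which encodes a zinc finger protein that binds RNA, had 108, 119 and 112 CPM in KO libraries and 120, 126 and 124 CPM in WT libraries. The groups did not overlap, but by a narrow gap, and the change did not pass the threshold (log2 fold change -0.13, adjusted p = 0.12 from edgeR).

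Among the genes of cell death, none of the 4 members passed the threshold with TMM scaling, and with marker scaling *Phlda3* (0.38), *Eda2r* (0.43) and *Trp53inp1* (0.31) were called higher. *Bbc3* (ENSMUSG00000002083, chromosome 7 from 16309616 to 16318205) encodes PUMA, a BH3-only protein that sets off apoptosis at mitochondria. It had 21.7, 21.2 and 19.0 CPM in KO libraries and 24.3, 22.2 and 23.0 CPM in WT libraries, with 265 to 347 counts behind each value. All KO libraries lay below all WT libraries, with a log2 fold change of -0.17 (95% interval -0.37 to 0.03, adjusted p = 0.185 from edgeR), and with marker scaling it was 0.23 (adjusted p = 0.0529). Of the 3 *Bbc3* windows, the first holds an element with 3 mismatches 97 to 78 bases before its start site (chr7:16309486-16309505, plus strand), which is shown because it lies close to the start of the counted gene.
*Bbc3*: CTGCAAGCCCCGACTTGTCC
Elements with at most 3 mismatches were common, with 15.6% of all windows and 4 of the 12 member windows (*Ccng1*, *Sesn1* and 2 of *Bbc3*).

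*Phlda3* (ENSMUSG00000041801, chromosome 1 from 135766119 to 135769136) encodes a small protein that competes with the kinase Akt for membrane lipids. It had 118, 134 and 119 CPM in KO libraries and 122, 133 and 120 CPM in WT libraries. The values overlapped fully, and the log2 fold change was -0.01 with a 95% interval from -0.17 to 0.14. *Eda2r* (ENSMUSG00000034457, X chromosome from 97333840 to 97377216) encodes a receptor of the tumor necrosis factor receptor family for ectodysplasin A2. It had 96.3, 95.6 and 89.4 CPM against 103, 95.2 and 77.0. The spread was larger among WT libraries, where replicate 3 was the lowest, and the log2 fold change was 0.03 (95% interval -0.20 to 0.26). *Trp53inp1* (ENSMUSG00000028211, chromosome 4 from 11156431 to 11174379) encodes a nuclear stress protein that acts with p53 in cell death and takes part in autophagy. It had 108, 113 and 106 CPM against 114, 122 and 111, which overlapped, and its log2 fold change was -0.09 (95% interval -0.21 to 0.04).

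*Gdf15* (ENSMUSG00000038508, chromosome 8 from 70629393 to 70632456) encodes a secreted factor of the TGF-β superfamily that is released by stressed cells and acts on appetite through a receptor in the brainstem. It had 23.8, 22.1 and 21.0 CPM in KO libraries and 28.1, 27.2 and 29.2 CPM in WT libraries, with 291 to 411 counts behind each value. All KO libraries were lower. The log2 fold change of -0.34 (SE 0.08, adjusted p = 0.0146 from edgeR) was the largest in size among the 10 members with TMM scaling and all 6 libraries. Of all genes tested 33.4% had a change at least as large. *Ccng1* was larger without KO replicate 2 (-0.34 against -0.32) or WT replicate 3 (-0.32 against -0.31), and *Mdm2* without KO replicate 3 (0.33 against -0.29). With marker scaling the log2 fold change of *Gdf15* was 0.06, the smallest of the 10 (adjusted p = 0.622). Without KO replicate 3 it was -0.29 (adjusted p = 0.0586) and without WT replicate 3 it was -0.31 (adjusted p = 0.0519). *Gdf15* is also a target of the integrated stress response. Of 13 genes of that response 4 were called higher and 2 lower (median 0.10 on the log2 scale), where 17.7% and 12.5% of all genes tested were.

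*Sesn1* (ENSMUSG00000038332, chromosome 10 from 41810574 to 41908424) encodes sestrin 1, which restrains the growth kinase complex mTORC1 when amino acids or redox balance fail. It had 7.94, 12.9 and 11.3 CPM in KO libraries and 10.4, 10.4 and 11.4 CPM in WT libraries. KO replicate 1 was the lowest and KO replicate 2 the highest of all 6, so KO libraries surrounded WT libraries. With 97 to 176 counts per library it was the least precise member (log2 fold change 0.00, 95% interval -0.40 to 0.40), at 0.18 without KO replicate 1 and -0.14 without KO replicate 2. A change between -0.40 and 0.40 thus lies within the 95% interval, and the smallest change that would be called for *Sesn1* was not estimated.

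**Figure D2:**
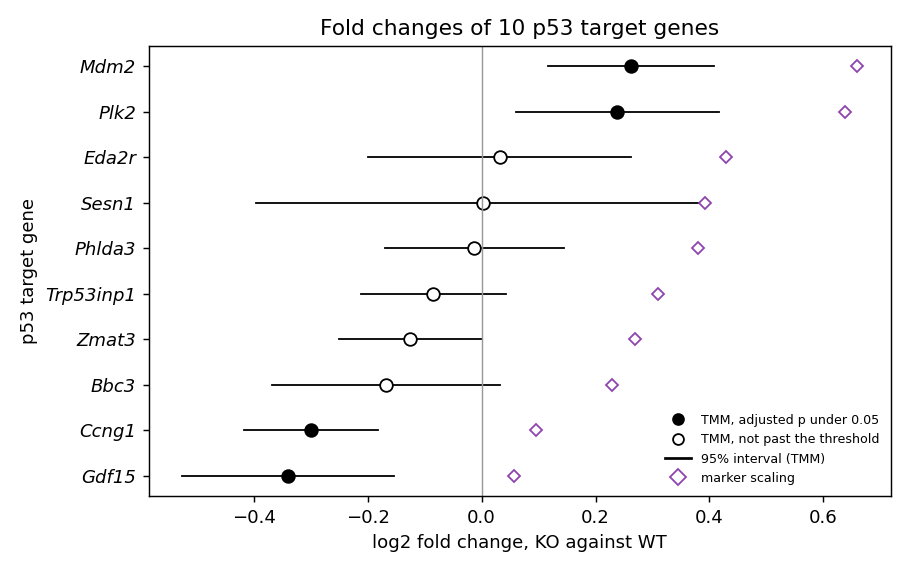
Log2 fold change of each p53 target gene in KO libraries against WT libraries, with TMM scaling (circles, filled where the adjusted p was under 0.05) and its 95% interval, and with marker scaling, which uses cardiomyocyte and macrophage genes (diamonds). The TMM values run from -0.34 for *Gdf15* to 0.26 for *Mdm2*, and marker scaling moves all of them up and leaves their order the same.

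The direction of small changes depends on how libraries are scaled. Scaling on cardiomyocyte and macrophage markers, whose summed levels were lower in KO libraries, moved the median of all genes from -0.02 to 0.38 and the members' median from -0.05 to 0.34. With it 6 members were called higher and none lower, and *Ccng1* (0.10), *Gdf15* (0.06) and *Trp53* (0.10) were above 0 and not past the threshold. *Mdm2* (0.66) and *Plk2* (0.64) stayed higher. This scaling moves all genes by about the same amount, so it leaves their positions relative to each other nearly as they were.

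Ratios between genes of the same library do not depend on the scaling and are given as a description, with no test, for 5 pairs chosen after the values were seen. Each pair sets a gene seen to be higher over a gene seen to be lower, both without overlap, so the choice of pairs fixes the direction and the separation of the ratios, and their size restates the fold changes of both genes without the scaling. FPKM of *Mdm2* over FPKM of *Trp53* was 0.716, 0.767 and 0.719 in KO libraries and 0.478, 0.514 and 0.501 in WT libraries. The ratio was 47.5% higher, from 0.498 ± 0.0184 (SD, n = 3) to 0.734 ± 0.0287. *Mdm2* over *Gdf15* was 2.55, 2.60 and 2.48 against 1.71, 1.69 and 1.64. *Mdm2* over *Ccng1* was 0.228, 0.196 and 0.194 against 0.141, 0.133 and 0.146. The log2 differences of these ratios were 0.60 and 0.56. *Plk2* over *Ccng1* was 2.37, 1.75 and 1.94 against 1.37, 1.35 and 1.43, with a log2 difference of 0.53 that ran from 0.41 to 0.63 when a library was left out. *Mdm2* over *Cdkn1a* differed by 0.40 (0.32 to 0.47 when a library was left out).

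**Figure D3:**
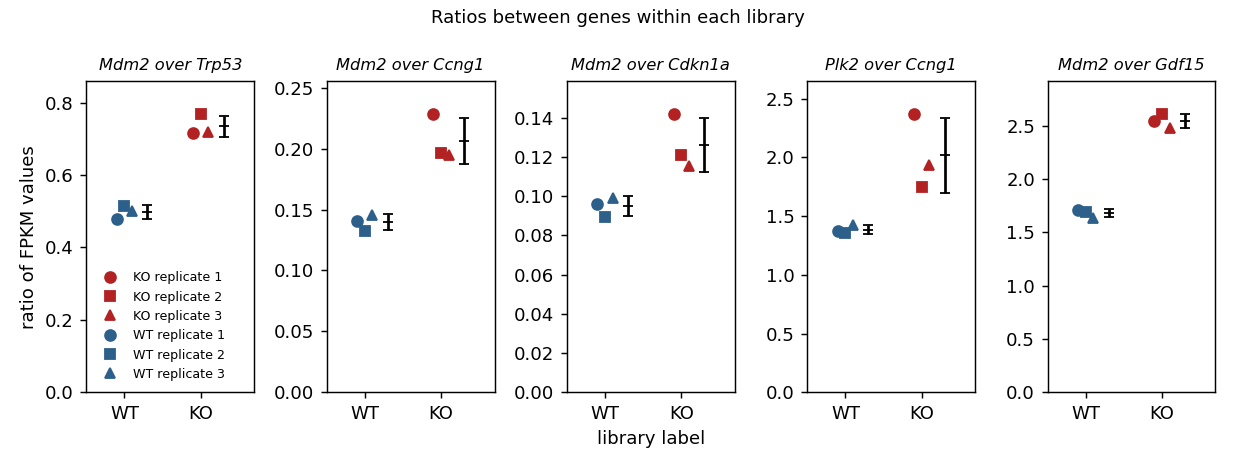
Ratio of FPKM values of 2 genes within each library (points, blue for WT libraries and red for KO libraries), with mean and SD (n = 3) beside them. The order of the labels was fixed by the choice of pairs, and the gaps restate the fold changes of both genes, for example 0.716 to 0.767 against 0.478 to 0.514 for *Mdm2* over *Trp53*.

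The rest of the pathway was read from a list of 28 other p53 target genes, all of them tested. Of these 2 were higher and 7 lower in KO libraries (15 and 0 with marker scaling), a share of 32.1% called beside the 30.2% of all genes, and the median log2 fold change was -0.12. The count of 9 fell to 4 without KO replicate 3 or WT replicate 2 and to 5 without KO replicate 1, and it was 6 without WT replicate 1 or 3 and in DESeq2. None was called higher in DESeq2, without KO replicate 1 or 3, or without WT replicate 2 or 3. *Cdkn1a*, which encodes the cell cycle inhibitor p21 and is the best known arrest gene of p53, had 450, 498 and 472 CPM against 524, 540 and 506. The groups did not overlap, and the log2 fold change of -0.14 did not pass the threshold (95% interval -0.26 to -0.03, adjusted p = 0.064 from edgeR). It passed as lower without KO replicate 2 (-0.17, adjusted p = 0.0363) and with upper quartile scaling (-0.19, adjusted p = 0.032), and as higher with marker scaling (0.25, adjusted p = 0.00358).

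Those that fell most were *Perp*, *Ptp4a3* and *Thbs1*. *Perp*, which encodes a membrane protein of desmosomes and apoptosis, had 11.8, 12.0 and 10.8 CPM against 13.5, 20.6 and 16.2 (log2 fold change -0.54, adjusted p = 0.0329 from edgeR), and its call was lost without KO replicate 1, 2 or 3 and without WT replicate 2 or 3 (-0.57 to -0.37, adjusted p = 0.0612 to 0.104). *Ptp4a3*, which encodes a phosphatase, fell by 0.41 on the log2 scale, and *Thbs1*, the matrix protein thrombospondin 1, fell by 0.39 from 4895, 5150 and 5284 CPM to 3489, 4117 and 4064. *Steap3*, which encodes a reductase of iron and copper, was higher by 0.31 (adjusted p = 0.0331), a call that was lost without KO replicate 1 or 3 and without WT replicate 1, 2 or 3 (0.26 to 0.34, adjusted p = 0.055 to 0.104), in DESeq2 (adjusted p = 0.0835), with upper quartile scaling (0.0546) and in limma on log2(FPKM + 0.1) (0.0501). With marker scaling *Perp* (-0.15), *Ptp4a3* (-0.02) and *Thbs1* (0.00031) no longer passed. Other called genes included *Tigar* (0.29) on the higher side and *Btg2*, *Ak1* and *Ddit4* on the lower side, between -0.33 and -0.18.

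Upstream of p53, 16 of 19 listed family members and regulators could be tested. *Cop1* was not matched by that symbol and was not analysed here, and *Trp63* and *Trp73*, the relatives of *Trp53*, had at most 5 counts in any library. Of the 16, 5 were higher and 2 lower (12 and 0 with marker scaling), a share of 43.8% beside the 30.2% of all genes tested, and their median was 0.05 on the log2 scale. Without WT replicate 1 the count of 7 fell to 4. *Chek1*, a checkpoint kinase of DNA replication, rose most, with 17.0, 14.0 and 13.2 CPM against 7.84, 7.44 and 7.11 (log2 fold change 0.98, adjusted p = 0.00103 from edgeR). *Chek2*, the checkpoint kinase of double-strand breaks, followed with 25.9, 21.5 and 25.6 CPM against 15.1, 15.4 and 14.2 (0.71, adjusted p = 0.00144). Both groups were well separated, and the mitotic genes rose in the same libraries, by a median of 0.83 on the log2 scale. The part of that rise in the values of *Chek1* and *Chek2* was not tested. *Ppp1r13b*, which encodes the p53 cofactor ASPP1, *Atm* and *Ep300* were higher by 0.36, 0.31 and 0.25, and the call of *Ppp1r13b* was lost without KO replicate 1 or 3 and without WT replicate 1 or 3 (0.28 to 0.38, adjusted p = 0.0678 to 0.095). *Cdkn2a*, whose counts join the cell cycle inhibitor p16 and the Mdm2 inhibitor p19Arf, fell from 33.9, 34.9 and 34.1 CPM to 23.8, 26.6 and 22.1 (log2 fold change -0.51, adjusted p = 0.00304), and with marker scaling it was -0.11 and not past the threshold.

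**Figure D4:**
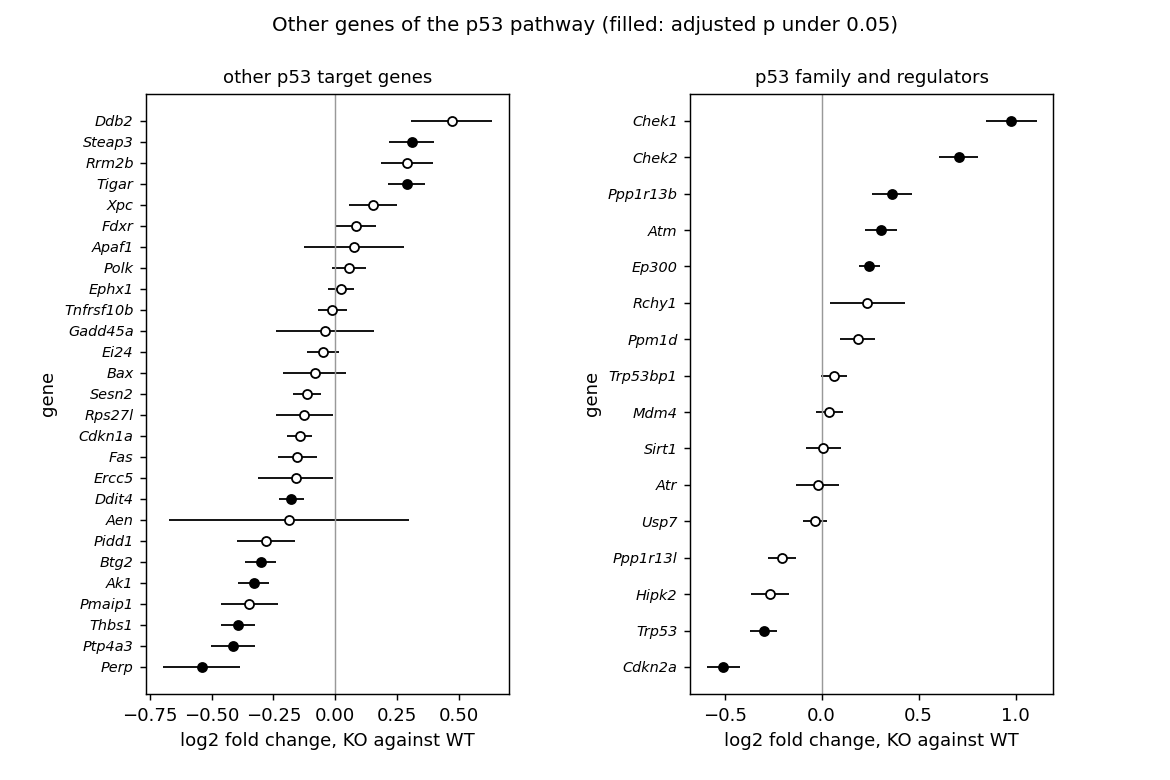
Log2 fold change with its standard error for other p53 target genes (left) and for p53 family members and regulators (right), in KO libraries against WT libraries and with TMM scaling. Filled circles passed an adjusted p of 0.05, which were 2 higher and 6 lower among the 27 genes drawn on the left and 5 higher and 2 lower on the right, while with marker scaling (not drawn) 0 were lower on either side.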

How the data were processed

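Strand-specific oligo(dT) libraries of cardiac fibroblasts were sequenced in 6 samples, 3 labelled KO and 3 labelled WT. The authors aligned reads to mm10 with HISAT2 (named in the submitters' processing notes with GRCm38.p4 and edgeR), and the counting tool and the annotation release are not given in the sources used here. The deposited table gives counts per gene, not normalized, and FPKM values computed by the authors, and 0 columns of samples were left unused. Depth was 12025403 to 15329427 counts, and 3 counts correspond to 0.196 to 0.249 CPM.

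Counts were filtered with edgeR's filterByExpr, scaled by TMM and tested by edgeR's quasi-likelihood test (edgeR 4.0.16, R 4.3.3), KO against WT without a replicate term, with Benjamini-Hochberg adjustment over all 14084 genes tested. Fold changes are on the log2 scale, and intervals are 95% intervals of the fit. CPM values are TMM-scaled. The script was tested on simulated data, with 200 of 14084 genes changed in each of 5 simulations. There edgeR called 41.2% of genes changed by 0.5 in size on the log2 scale, and 8.62% of its calls were false. Exact two-sided permutation tests used 3 against 3 libraries, where the smallest p is 0.1.

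The members and lists were chosen with earlier results of these data known. Named genes were the 10 members, *Trp53*, *Cdkn1a*, *Mdm4*, *Kdm5b*, and, from the other p53 lists, the called genes with the 4 highest and the 4 lowest fold changes at a mean FPKM of at least 1. *Tigar*, *Btg2*, *Ak1*, *Ddit4*, *Atm* and *Ep300*, and *Atf3*, *Jun* and *Egr1*, were named after their values were seen. Alternatives were DESeq2 1.42.0, library size, upper quartile and marker scaling, other filters, limma 3.58.1 on log2(FPKM + 1) and log2(FPKM + 0.1), a replicate block, a 2-fold minimum, and leaving out each library. One listed gene is counted among the other p53 target genes but not reported here. Promoter windows came from RefSeq (GRCm38.p6). Figures were drawn with matplotlib 3.10.9 (Python 3.11.15).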

Additional observations from a re-analysis of the deposited data

How the results depend on the processing

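The counts of calls were 4 members (2 higher, 2 lower), 9 other p53 target genes (2 higher, 7 lower) and 7 regulators (5 higher, 2 lower). Asking for a fold change above 2 in addition left 0 in each of these 9 counts. Marker scaling gave 6 members higher and 0 lower, 15 other targets higher and 0 lower (15 in all), and 12 regulators higher and 0 lower (12 in all), and moved the members' median log2 fold change from -0.05 to 0.34. With it the log2 fold changes of *Ccng1* (0.10), *Gdf15* (0.057), *Zmat3* (0.27), *Bbc3* (0.23), *Phlda3* (0.38), *Trp53inp1* (0.31), *Trp53* (0.10), *Cdkn1a* (0.25) and *Thbs1* (0.00031) were above 0. Marker scaling sets each library by the median log ratio over the single markers tested. It lifts all genes by construction, because 8 of 10 macrophage and all 10 cardiomyocyte markers were below 0 with TMM scaling. Upper quartile scaling gave 1 member higher, 1 other target higher and 4 regulators lower. DESeq2 gave 0 other targets higher and limma on log2(FPKM + 0.1) gave 1, and the cause was not tested. Leaving out a library gave 2 to 4 members (0 to 2 higher, 1 to 2 lower), 4 to 10 other targets (0 to 3 higher, 4 to 7 lower) and 4 to 6 regulators (3 to 4 higher, 1 to 2 lower), and a members' median of -0.12 to -0.028.

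The labels number the libraries 1 to 3 in each group, but nothing says that a number marks a shared litter or day. Same-numbered libraries correlated at 0.00896, 0.00944 and 0.0315, and whether they share more than a number was not tested. As a hint from the data, every library correlated best with its own number. With the replicate block 1 member and 1 other target were higher, the calls of *Plk2*, *Steap3* and *Ppp1r13b* were lost (adjusted p = 0.0531, 0.0694 and 0.0665 in edgeR), *Kdm5b* passed (adjusted p = 0.0271), and 3907 genes in all were called against 4248.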

Other observations

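Some p53 target genes differed more between libraries of the same label than between labels, and were named after their values were seen. *Aen*, which encodes an exonuclease of apoptosis, had 47.1, 45.0 and 110 CPM in KO libraries and 52.6, 137 and 41.2 CPM in WT libraries, so that 1 library of each label stood far above the rest. *Apaf1*, which encodes the scaffold of the apoptosome, had 56.8, 59.4 and 87.5 CPM against 55.1, 55.6 and 82.9, with replicate 3 high in both. *Gadd45a*, a DNA damage and stress gene, had 105, 75.5 and 54.5 CPM against 79.5, 86.6 and 74.7, and KO replicate 1, where *Plk2* was also highest, had the highest value. None of these 3 genes passed the threshold between the labels (adjusted p = 0.802, 0.805 and 0.897 from edgeR).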
